A study of Caenorhabditis elegans with 12 samples.

Results

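The cytosolic heat-shock response was followed through 10 genes, chosen by the gene names in the count table, of 18467 genes in the table. They are the transcription factor gene hsf-1, the large chaperone genes daf-21, hsp-1, hsp-70 and hsp-110, and the small heat-shock protein genes hsp-16.2, hsp-16.41, hsp-16.48, hsp-17 and hsp-43. RNA was sequenced from whole wild-type N2 Caenorhabditis elegans in 12 libraries, 3 for each of 4 feeding treatments. The treatments were vha-6 RNAi, vha-16 RNAi, vha-19 RNAi and control RNAi. In each knockdown group the target bacteria made up 25% of the food and control bacteria the other 75%. All groups started RNAi as L1 larvae and were collected after 2.5 days at 20 °C, as L4 larvae or young adults, with no heat treatment named in the labels. The targets are subunits of the vacuolar H+-ATPase, the proton pump that acidifies lysosomes, and the series title names a response to lysosomal stress.

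HSF-1 is the transcription factor that switches on chaperone genes when proteins unfold in the cytosol, and it also keeps chaperone transcripts at their basal level in unstressed and developing worms. HSP90 and the constitutive HSP70 are abundant in unstressed cells and fold clients with the help of cochaperones. The small heat-shock proteins are holdases with an alpha-crystallin domain, which bind unfolding proteins without using ATP, and in worms the hsp-16 genes are nearly silent until heat or another stress induces them.

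All 10 genes passed the filter on low counts and were tested among 17043 genes. Libraries held 21981854 to 22553227 counts in genes. The knockdown targets checked the labels: vha-6 stood at 23.4% of control under its own RNAi, vha-16 at 61.0% and vha-19 at 46.3%, by mean CPM (counts per 1000000 gene counts, with library sizes adjusted by edgeR's TMM factors). As vha-6 also stood at 31.7% of control in the vha-16 group and 28.8% in the vha-19 group, its fall was not limited to its own knockdown. vha-19 stood at 67.8% of control in the vha-16 group and vha-16 at 85.8% in the vha-19 group. In the vha-6 group vha-16 stood at 197% and vha-19 at 166%. These percentages of control rest on TMM and were not recomputed with library totals. Changes were wide. The share of genes called at adjusted p under 0.05 was 89.4% for vha-6 RNAi against control, 89.8% for vha-16 RNAi and 89.9% for vha-19 RNAi (edgeR's quasi-likelihood test with Benjamini-Hochberg adjustment). Scaling matters for that reason. Scaling by library totals instead moved the median log2 fold change of all genes up by 0.45, 0.52 and 0.54 in these comparisons in turn, and member changes against control below move by about as much. Between knockdowns the same median moved by -0.073, -0.096 and -0.023. The median of all genes under TMM was 0.24, 0.20 and 0.19. Tissue markers moved as well. In whole worms, fewer cells of a tissue and less RNA per cell cannot be told apart.

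The small heat-shock genes were higher and the abundant chaperone genes and hsf-1 lower in all knockdowns, except for hsp-70 among the large ones and, in the vha-6 group, hsp-16.48 and hsp-43 among the small ones. Against control RNAi, 4 members in the vha-6 group were called higher and 5 lower, where 47.9% of all genes were called higher and 41.4% lower. The vha-16 group had 6 higher and 4 lower (48% and 41.9% of all genes), and the vha-19 group also 6 and 4 (47.7% and 42.2%). Changes of 2-fold or more were seen in 7 members in the vha-6 group, 7 in the vha-16 group and 6 in the vha-19 group, where 54.7%, 59.1% and 58.5% of all genes changed that much. With library totals no fall reached 2-fold, and the vha-6 group had 4 such members in place of 7 (55.3% of all genes). Counts of called members are therefore near the background of these comparisons, and the direction and size of each gene carry the description. In TMM-scaled CPM, libraries of the knockdown and control groups did not overlap for 9 members under vha-6 RNAi and for all 10 under vha-16 and vha-19 RNAi, against 89.6%, 90% and 89.9% of all genes. The 3 comparisons share their control libraries.

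**Figure D1:**
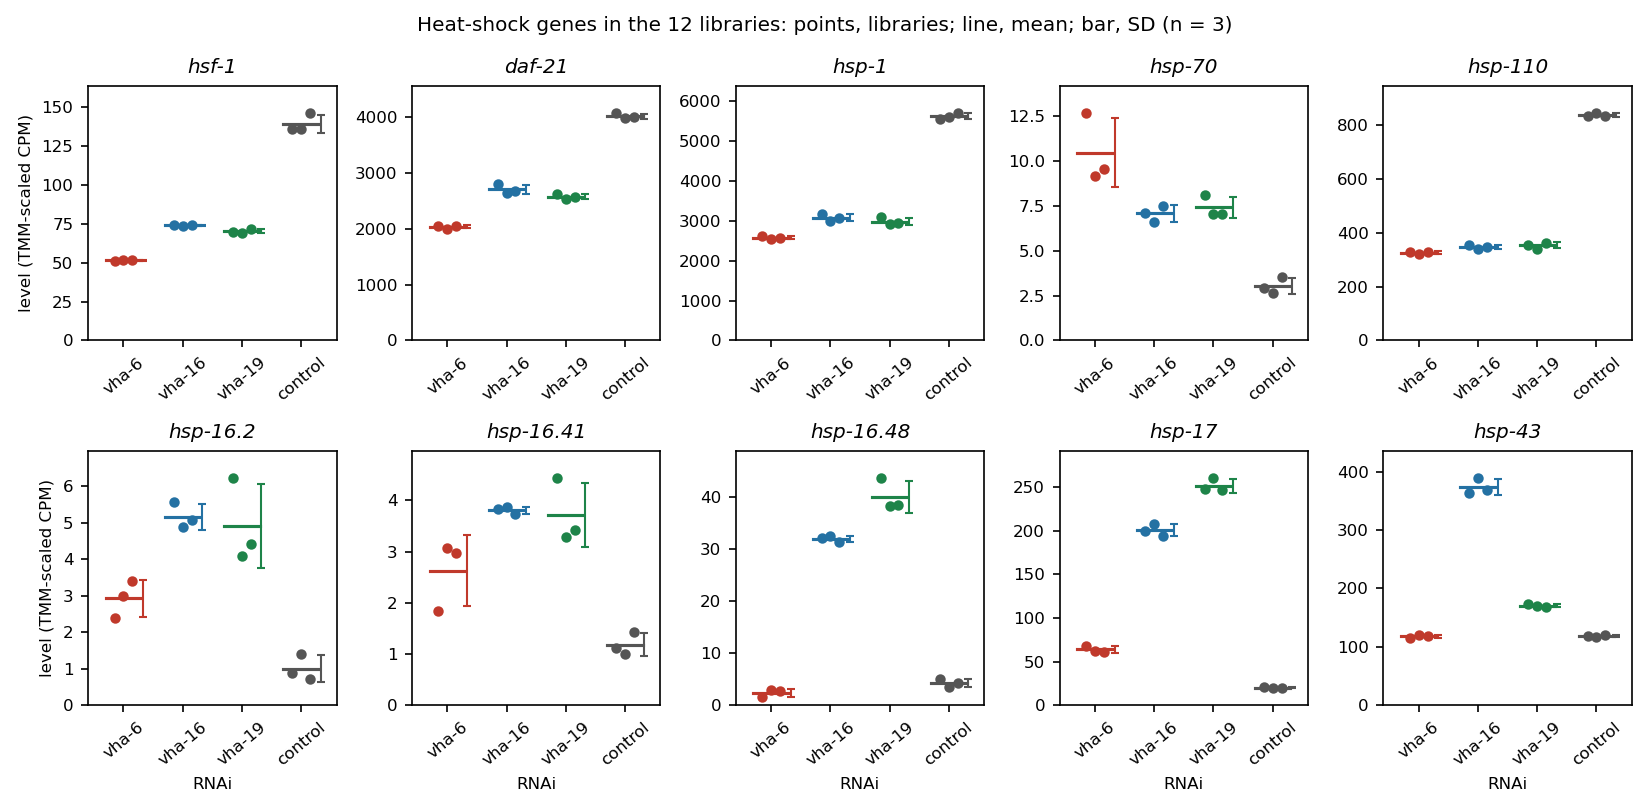
Levels of the 10 heat-shock genes in TMM-scaled CPM (vertical axes, starting at 0, a separate scale for each gene) by RNAi treatment, with points for libraries, a line for the mean and a bar for the SD of 3 libraries. hsf-1, daf-21, hsp-1 and hsp-110 are highest in the control libraries, and hsp-70, hsp-16.2, hsp-16.41 and hsp-17 are lowest there, while hsp-43 stands at 364 to 389 CPM under vha-16 RNAi alone.

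The gene of the heat-shock transcription factor, hsf-1 (WBGene00002004, chromosome I, 11953507 to 11963085, WBcel235), fell in all 3 knockdowns. Its level was 51.3, 51.5 and 51.7 CPM in the vha-6 libraries. It was 74.0, 73.6 and 74.2 CPM in the vha-16 libraries and 69.9, 68.9 and 71.5 CPM in the vha-19 libraries, against 136, 136 and 146 CPM in control libraries. No knockdown library came near a control library, and the vha-6 libraries were the lowest of all. The log2 fold change against control was -1.44 under vha-6 RNAi (SE 0.0385, adjusted p = 3.81e-27 by edgeR), -0.91 under vha-16 RNAi (adjusted p = 3.98e-22) and -0.99 under vha-19 RNAi (adjusted p = 4.30e-23). With library totals the same changes were -0.99, -0.39 and -0.45, all still called.

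The constitutive HSP70 and HSP90 genes were also lower in every knockdown with TMM scaling. A link to the fall of hsf-1 was not tested. The hsp-1 gene (WBGene00002005, chromosome IV, 17278959 to 17281330) encodes the constitutive cytosolic HSP70, and per kilobase of exon its level was the highest of the 10 genes in every group. It had 2610, 2555 and 2579 CPM in vha-6 libraries, 3165, 2991 and 3078 CPM in vha-16 libraries and 3089, 2911 and 2945 CPM in vha-19 libraries, against 5549, 5606 and 5698 CPM in control libraries. Every knockdown library lay well under the control libraries. The log2 fold changes were -1.12 under vha-6 RNAi (SE 0.0312, adjusted p = 1.01e-26), -0.87 in the vha-16 group and -0.91 in the vha-19 group by edgeR, and -0.67, -0.35 and -0.37 with library totals, all called.

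HSP90, which matures kinases and receptors, is encoded by daf-21 (current symbol hsp-90, WBGene00000915, chromosome V, 14684918 to 14688545). Its level was 2058, 2005 and 2058 CPM in vha-6 libraries, 2808, 2653 and 2674 CPM in vha-16 libraries and 2626, 2531 and 2580 CPM in vha-19 libraries, against 4076, 3987 and 4001 CPM in control libraries. The log2 fold change was -0.98 under vha-6 RNAi (SE 0.0306, adjusted p = 2.89e-25), -0.57 under vha-16 RNAi (adjusted p = 1.49e-18) and -0.64 under vha-19 RNAi (adjusted p = 4.84e-20) by edgeR. The fall of daf-21 under vha-16 and vha-19 RNAi rests on the scaling. With library totals it was -0.53 under vha-6 RNAi, but -0.049 under vha-16 RNAi (adjusted p = 0.106) and -0.098 under vha-19 RNAi (adjusted p = 0.00217).

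Among the large chaperone genes with lower levels, hsp-110 had the largest fall in each comparison with control. It encodes a member of the HSP110 family, nucleotide exchange factors that release substrates from HSP70 (WBGene00016250, chromosome III, 8443910 to 8446909). The vha-6 libraries had 329, 321 and 329 CPM, the vha-16 libraries 356, 338 and 347 CPM and the vha-19 libraries 356, 341 and 363 CPM, against 834, 844 and 834 CPM in control libraries. Its level thus ended within a narrow band in the knockdowns, at 39.0%, 41.4% and 42.2% of control. The log2 fold changes were -1.36, -1.27 and -1.24 (largest SE 0.0321, largest adjusted p = 7.82e-28 by edgeR), and -0.91, -0.75 and -0.70 with library totals.

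The inducible HSP70 gene hsp-70 (WBGene00002026, chromosome I, 9320325 to 9322519) moved the opposite way from hsp-1. Its level was 12.7, 9.19 and 9.54 CPM in vha-6 libraries, 7.13, 6.60 and 7.51 CPM in vha-16 libraries and 8.12, 7.06 and 7.07 CPM in vha-19 libraries, against 2.93, 2.65 and 3.52 CPM in control libraries. These are low levels, from 45 to 59 counts per control library and 216 to 297 per vha-6 library. No knockdown library overlapped a control library. The log2 fold change was 1.79 under vha-6 RNAi (SE 0.138, adjusted p = 4.51e-14), 1.22 under vha-16 RNAi (adjusted p = 2.48e-09) and 1.29 under vha-19 RNAi (adjusted p = 5.91e-10) by edgeR. Per 1000 counts of hsp-1 in the same library, a ratio that no scaling can change, there were 3.598 to 4.86 counts of hsp-70 under vha-6 RNAi, 2.21 to 2.44 under vha-16 RNAi and 2.40 to 2.63 under vha-19 RNAi, against 0.473 to 0.617 in control.

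The position of hsp-70 limits what its counts can show. The gene lies whole within the span of uggt-2, which runs on the opposite strand, and shares 0 bases of exon with it. uggt-2 encodes a homologue of the glucosyltransferase that checks glycoprotein folding in the endoplasmic reticulum. The strand setting of the counting is not given in the sources used here, and without strand, reads of hsp-70 and of unspliced uggt-2 RNA cannot be told apart. In these libraries uggt-2 averaged 24.2 CPM under vha-6 RNAi, 15.8 CPM under vha-16 RNAi and 18.6 CPM under vha-19 RNAi, against 4.43 CPM in control (log2 fold changes 2.45, 1.84 and 2.07, largest adjusted p = 8.04e-19 by edgeR). It had the same order of groups as hsp-70, and its part in the hsp-70 result was not tested.

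Among the small heat-shock genes, hsp-17 had the largest rise under vha-16 and vha-19 RNAi. It encodes a small heat-shock protein (WBGene00002021, chromosome V, 8384799 to 8385929). The vha-6 libraries had 67.9, 62.4 and 61.2 CPM, the vha-16 libraries 200, 208 and 194 CPM and the vha-19 libraries 247, 260 and 246 CPM, against 21.1, 19.6 and 19.6 CPM in control libraries. All 4 groups stood apart, with control lowest and vha-19 highest. hsp-17 was 3.18-fold higher under vha-6 RNAi (log2 fold change 1.67, SE 0.0553, adjusted p = 1.70e-24), 9.98-fold under vha-16 RNAi (3.32, SE 0.0501, adjusted p = 1.83e-34) and 12.5-fold under vha-19 RNAi (3.64, SE 0.0495, adjusted p = 1.01e-35) by edgeR. Of all genes tested, 2.66% had a larger positive change under vha-19 RNAi and 4% under vha-16 RNAi, but 19.5% under vha-6 RNAi. The 3′ end of hsp-17 overlaps 73 bases of exon of F52E1.14 on the other strand, which is 13.04% of its exons. F52E1.14 was higher under vha-6 RNAi (0.48) and lower under vha-16 and vha-19 RNAi (by -0.86 and -0.997). Its part in the hsp-17 result was not tested.

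A level of hsp-43, a longer gene for a small heat-shock protein (WBGene00002024, chromosome X, 6233151 to 6235543), set vha-16 RNAi apart from the other treatments. It stood at 364, 389 and 369 CPM in vha-16 libraries. In vha-6 libraries it had 116, 121 and 118 CPM and in vha-19 libraries 173, 170 and 169 CPM, against 118.9, 117.3 and 119.9 CPM in control libraries. The vha-6 libraries overlapped the control libraries and the other groups did not. The log2 fold change was 1.66 under vha-16 RNAi (SE 0.0347, adjusted p = 2.37e-30) and 0.52 under vha-19 RNAi (SE 0.0355, adjusted p = 1.30e-15) by edgeR. Under vha-6 RNAi it was -0.0049 (95% interval -0.079 to 0.069, adjusted p = 0.900), and this value is set by the scaling: it was 0.44 with library totals (adjusted p = 3.16e-13) and -0.14 with DESeq2's size factors (adjusted p = 0.000628). The rise under vha-19 RNAi kept its direction but not its size, at 1.07 with library totals and 0.35 with DESeq2's size factors, both called.

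**Figure D2:**
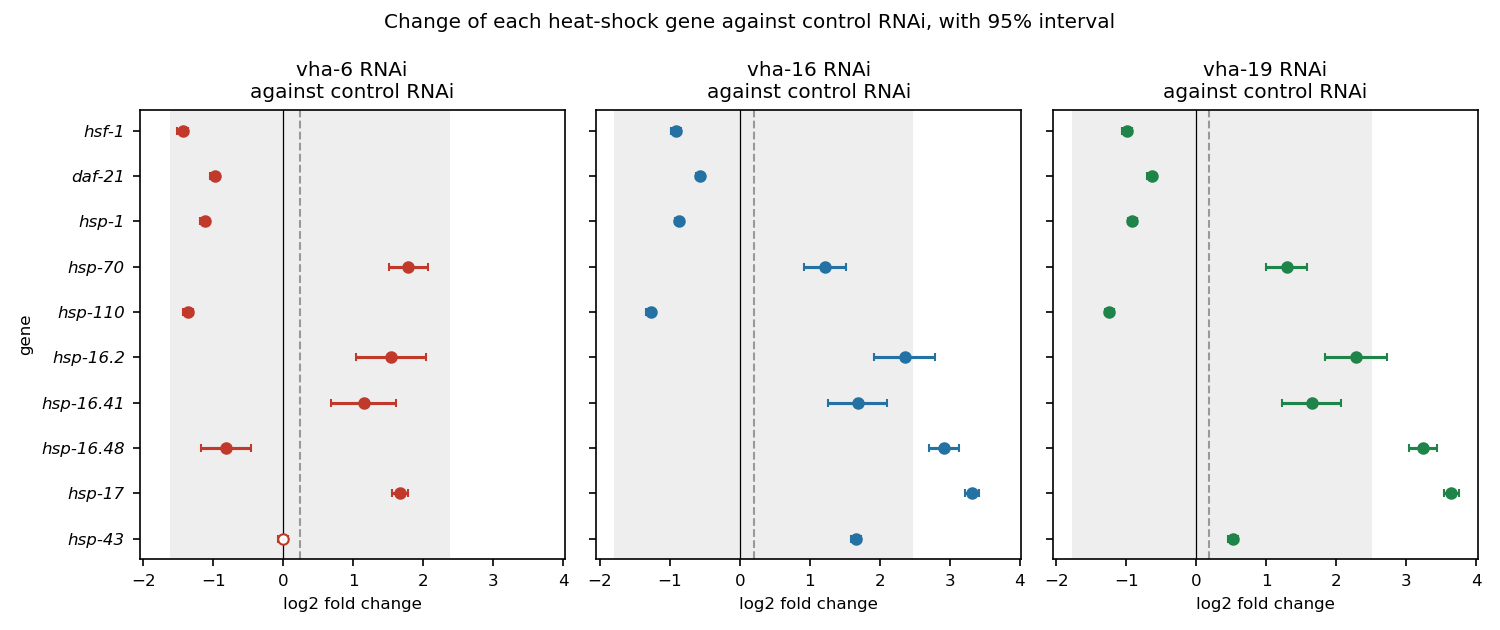
Log2 fold change of each heat-shock gene against control RNAi (horizontal axis), with 95% intervals derived from edgeR's F-test. Points are filled where adjusted p was under 0.05. The grey band spans the middle 80% of all 17043 genes and the dashed line their median; hsp-16.48 and hsp-17 lie inside the band in the vha-6 panel and above it in the other panels.

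Low counts were the rule for the hsp-16 genes, the classic heat-inducible small heat-shock genes of the worm. The annotation holds 6 of them on chromosome V, of which 3 are in the table, and the other copies were not analysed here. hsp-16.2 (WBGene00002016, 1804334 to 1804957, minus strand) and hsp-16.41 (WBGene00002018, 1805178 to 1805875, plus strand) are divergent neighbours with 220 bases between them. hsp-16.48 (WBGene00002019, 9088131 to 9088617) lies in a second cluster beside an inverted copy that bears the same current symbol. Copies of this family are near-identical and the table keeps reads without a unique alignment apart, so counts of hsp-16.48 are uncertain. Such reads made up 9.45% to 9.54% of all counted reads in vha-6 libraries, 7.62% to 7.67% in vha-16 libraries and 8.06% to 8.10% in vha-19 libraries, against 15.1% to 15.4% in control libraries.

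The divergent pair rose in every knockdown. hsp-16.2 had 2.39, 2.98 and 3.41 CPM in vha-6 libraries, 5.56, 4.87 and 5.06 CPM in vha-16 libraries and 6.22, 4.08 and 4.41 CPM in vha-19 libraries, against 0.879, 1.42 and 0.715 CPM in control libraries, where 12 to 24 counts stood behind each value. hsp-16.41 had 1.83, 3.06 and 2.98 CPM, 3.83, 3.86 and 3.74 CPM, and 4.43, 3.29 and 3.42 CPM in the vha-6, vha-16 and vha-19 libraries, against 1.11, 1.00 and 1.43 CPM in control libraries. For both genes all knockdown libraries lay above all control libraries, and vha-16 and vha-19 libraries overlapped. The log2 fold changes of hsp-16.2 were 1.54 (SE 0.246, adjusted p = 7.36e-07), 2.36 (SE 0.216, adjusted p = 3.94e-12) and 2.28 (SE 0.218, adjusted p = 1.10e-11) by edgeR. Those of hsp-16.41 were 1.15 (SE 0.226, adjusted p = 2.08e-05), 1.68 (SE 0.207, adjusted p = 3.95e-09) and 1.65 (SE 0.208, adjusted p = 6.78e-09). Counts of hsp-16.41 per count of hsp-16.2 ranged from 0.768 to 1.03 under vha-6 RNAi, 0.688 to 0.793 under vha-16 RNAi and 0.713 to 0.806 under vha-19 RNAi, against 0.708 to 2 in control, so the groups overlapped.

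hsp-16.48 was the member whose direction differed between knockdowns. It had 1.54, 2.89 and 2.77 CPM in vha-6 libraries, 32.1, 32.4 and 31.3 CPM in vha-16 libraries and 43.6, 38.1 and 38.3 CPM in vha-19 libraries, against 4.98, 3.54 and 4.17 CPM in control libraries. The vha-16 and vha-19 libraries stood far above all others and the vha-6 libraries just under control. It was 7.53-fold higher under vha-16 RNAi (log2 fold change 2.91, SE 0.105, adjusted p = 1.56e-23) and 9.44-fold under vha-19 RNAi (3.239, SE 0.101, adjusted p = 2.46e-25) by edgeR. Under vha-6 RNAi it was lower (-0.82, SE 0.176, adjusted p = 7.28e-05), on 36 to 68 counts per vha-6 library and 60 to 85 per control library. That fall shrank to -0.37 with library totals (adjusted p = 0.0494). Per count of hsp-16.2 in the same library there were 0.643 to 0.971 counts of hsp-16.48 under vha-6 RNAi, 5.78 to 6.66 under vha-16 RNAi and 7.01 to 9.34 under vha-19 RNAi, against 2.5 to 5.83 in control.

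Direct comparison of the knockdowns separated vha-6 RNAi from the others. For vha-6 RNAi against vha-16 RNAi 9 members were lower and 1, hsp-70, was higher, where 31.6% of all genes were called lower, 31.2% higher and 62.8% either way. Against vha-19 RNAi the counts were again 9 and 1, with 29.5% of all genes lower, 29% higher and 58.4% either way. The libraries of all 10 members did not overlap in either comparison, against 66.6% and 63.2% of all genes. All 5 small heat-shock members were lower under vha-6 RNAi in both comparisons. The 7 other small heat-shock genes tested did not share this direction as a set. Of them 3 were higher and 2 lower against vha-16 RNAi (median 0.19), and 4 and 2 against vha-19 RNAi (median 0.29). Changes of 2-fold or more were seen in 3 members against vha-16 RNAi (15.5% of all genes) and 2 against vha-19 RNAi (13.3%). The differences were largest for hsp-16.48 (log2 fold change -3.73, SE 0.108, against vha-16 RNAi and -4.06, SE 0.104, against vha-19 RNAi) and hsp-17 (-1.65 and -1.98), and hsp-43 differed by -1.66 and -0.53. hsp-16.2 was at -0.82 and -0.74 (adjusted p = 1.83e-05 and 8.63e-05 by edgeR). hsp-16.41 was at -0.53 and -0.50 (adjusted p = 0.00340 and 0.00672), which leaving out the vha-6 library of replicate 1 turned into -0.33 and -0.30 (adjusted p = 0.0641 and 0.107). Without the vha-19 library of replicate 1 the second difference was -0.34 (adjusted p = 0.0895).

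Among the other members the steps between knockdowns were smaller. hsf-1 was lower under vha-6 RNAi than under vha-16 RNAi by -0.52 on the log2 scale and than under vha-19 RNAi by -0.44, daf-21 by -0.41 and -0.34, and hsp-1 by -0.25 and -0.21, all with adjusted p at or under 4.31e-07 by edgeR. hsp-70 was higher by 0.56 (SE 0.104, adjusted p = 1.46e-05) and 0.50 (SE 0.103, adjusted p = 8.18e-05). hsp-110 differed by only -0.089 (adjusted p = 0.0163) and -0.12 (adjusted p = 0.00227). The hsp-110 difference from vha-16 RNAi was no longer called with DESeq2's size factors (-0.034, adjusted p = 0.370), without 1 of several libraries, or with TMM computed without genes of oocyte, sperm, yolk and cuticle. Without the vha-16 library of replicate 1 it was -0.036 (adjusted p = 0.392), without that of replicate 3 -0.059 (adjusted p = 0.165) and without the vha-6 library of replicate 2 -0.077 (adjusted p = 0.0720). The difference from vha-19 RNAi was -0.083 without the vha-19 library of replicate 3 (adjusted p = 0.0505).

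The vha-16 and vha-19 treatments differed in 3 of the 10 genes, 1 higher and 2 lower, where 17.4% of all genes were called, 9.81% higher and 7.56% lower. Libraries did not overlap for 5 members, against 30.2% of all genes. hsp-43 was higher under vha-16 RNAi by 1.13 on the log2 scale (SE 0.0328, 95% interval 1.07 to 1.199, adjusted p = 5.08e-23 by edgeR), a change of 2.19-fold, where 0.522% of all genes differed by 2-fold or more. Its p-value ranked 1 among the 17043 genes of this comparison, and 0.692% of genes had a larger positive difference. hsp-17 and hsp-16.48 were lower under vha-16 RNAi, each by -0.33 (SE 0.0360 and 0.0634, adjusted p = 1.38e-08 and 0.000240). The other 7 genes were not called by edgeR, and limma-voom called daf-21 (0.072, adjusted p = 0.0238), which edgeR put at 0.072 (adjusted p = 0.104; from 0.0937 to 0.699 over its other alternatives). The 95% intervals ran from -0.0007 to 0.153 for hsf-1, 0.0106 to 0.134 for daf-21, -0.0167 to 0.109 for hsp-1, -0.0918 to 0.0381 for hsp-110, -0.290 to 0.156 for hsp-70, -0.200 to 0.348 for hsp-16.2 and -0.255 to 0.327 for hsp-16.41. Differences of up to about those sizes are therefore not excluded by the data.

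**Figure D3:**
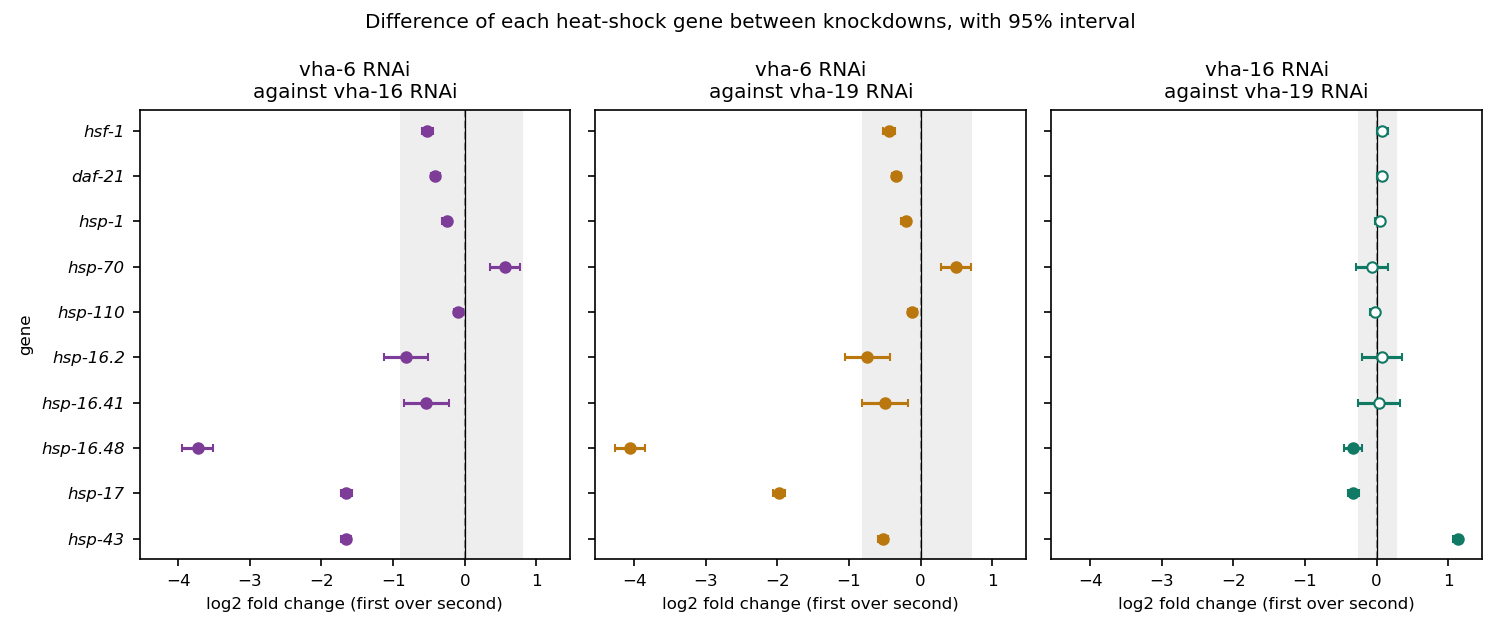
Log2 fold change of each heat-shock gene between pairs of knockdowns (horizontal axis, first treatment over second) with 95% intervals derived from edgeR's F-test. Points are filled where adjusted p was under 0.05, and the grey band spans the middle 80% of all genes. hsp-16.48 lies at -3.73 and -4.06 in the comparisons of vha-6 RNAi, and hsp-43 at 1.13 in the comparison of vha-16 RNAi with vha-19 RNAi, outside the band each time.

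Levels were set side by side per kilobase, as mean CPM divided by the length of the gene's exons. In every group hsp-1 was highest and daf-21 next, at 1245 and 865 CPM per kilobase under vha-6 RNAi, 1485 and 1149 under vha-16 RNAi and 1438 and 1093 under vha-19 RNAi, against 2710 and 1705 in control. Below them the order changed. Under control RNAi hsp-110 followed (310 CPM per kilobase), then hsp-43 (85.7), hsf-1 (56.2) and hsp-17 (35.9). hsp-17 took the third place under vha-16 RNAi (358 ± 12.14) and vha-19 RNAi (449 ± 13.7, SD, n = 3), above hsp-110 in both (128 ± 3.26 and 131 ± 4.12). Under vha-6 RNAi hsp-17 (114 ± 6.40) and hsp-110 (121 ± 1.87) differed by about their spread. hsp-16.48 stood at 73.9 ± 1.40 and 92.6 ± 7.12 CPM per kilobase under vha-16 and vha-19 RNAi, against 9.79 ± 1.68 in control. The lowest places went to hsp-70, hsp-16.2 and hsp-16.41, at 5.09, 5.06 and 4.10 CPM per kilobase under vha-6 RNAi, 3.44, 8.93 and 5.95 under vha-16 RNAi and 3.604, 8.48 and 5.80 under vha-19 RNAi, against 1.47, 1.74 and 1.85 in control. Under vha-6 RNAi and in control these 3 genes did not differ beyond their spread, and under vha-6 RNAi neither did hsp-16.48 (5.55 ± 1.74) from them.

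Summed counts give a ratio between classes that needs no scaling, but the most abundant genes of each class set most of it. For every 1000 counts of the 4 large chaperone genes there were 37.8 to 39.3 counts of the 5 small heat-shock genes under vha-6 RNAi, 95.6 to 107 under vha-16 RNAi and 78.0 to 82.2 under vha-19 RNAi, against 13.7 to 14.0 in control libraries. The groups did not overlap. The step between vha-16 and vha-19 RNAi was not shared by the class. hsp-43 had 9044 to 9672 counts per vha-16 library and 4248 to 4361 per vha-19 library, while hsp-17 had 4832 to 5162 and 6200 to 6560. Shares of all gene counts amount to scaling by library totals. The small genes together took 0.0199% of all gene counts in the vha-6 group, 0.0679% in the vha-16 group and 0.0528% in the vha-19 group, against 0.0112% in control. The large genes took 0.520%, 0.678% and 0.664%, against 0.807% in control. Among the large genes, counts of daf-21 per count of hsp-1 were 0.784 to 0.798, 0.869 to 0.887 and 0.850 to 0.876 in the vha-6, vha-16 and vha-19 libraries, against 0.702 to 0.735 in control. Their falls were thus unequal, with hsp-1 lower than daf-21 relative to control in each knockdown.

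Most cytosolic partners of the large chaperones were lower too with TMM scaling. In the lists that follow, calls against control are read beside all genes. Of these, 47.9% were higher and 41.4% lower under vha-6 RNAi, 48% and 41.9% under vha-16 RNAi and 47.7% and 42.2% under vha-19 RNAi. With library totals the shares of all genes were 58.1% and 32.8%, 59.4% and 31.7%, and 59.6% and 31.7%, in the same order. Of 14 cochaperones of HSP90 and HSP70, 13 were lower under vha-6 RNAi and 0 higher, and 13 were lower and 1 higher in each of the other knockdowns (medians -1.09, -0.86 and -0.95). With library totals 12, 11 and 11 were lower and 1, 3 and 2 higher in the vha-6, vha-16 and vha-19 groups. nud-1, a NudC homologue, had 39.1 ± 1.06 CPM under vha-6 RNAi, 37.8 ± 0.783 CPM under vha-16 RNAi and 39.6 ± 1.71 CPM under vha-19 RNAi, against 149 ± 2.097 CPM in control (SD, n = 3). ZC395.10 (current symbol daf-41), the p23 cochaperone of HSP90, had 138 ± 2.87, 185 ± 1.32 and 173 ± 6.82 CPM, against 486 ± 11.6 CPM. The cyclophilin gene cyn-1 had 48.0, 36.2 and 32.6 CPM, against 114 CPM. J-domain proteins, which pass substrates to HSP70, were lower in 8, 7 and 8 of 9 genes and higher in 1 in each knockdown (medians -0.93, -0.75 and -0.77), and with library totals lower in 8, 5 and 5 and higher in 1, 4 and 4. Among them dnj-23 had 19.5 CPM under vha-6 RNAi, 40.01 CPM under vha-16 RNAi and 39.2 CPM under vha-19 RNAi, against 70.4 CPM in control, and dnj-22 had 55.4, 48.9 and 54.1 CPM, against 135 CPM. dnj-8 had 61.8, 59.4 and 61.7 CPM, against 139.5 CPM.

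The chaperonin CCT, which folds actin and tubulin, was lower in all 8 subunit genes in every knockdown with TMM (medians -1.12, -0.65 and -0.75), but with library totals in 8, 6 and 7, with 0, 1 and 1 higher (medians -0.68, -0.13 and -0.21). cct-8 had 144 CPM under vha-6 RNAi, 185 CPM under vha-16 RNAi and 186 CPM under vha-19 RNAi, against 431 CPM in control, cct-2 had 274, 339 and 326 CPM, against 641 CPM, and cct-7 had 166, 233 and 220 CPM, against 399 CPM. Prefoldin, which hands nascent chains to CCT, was lower in all 6 genes (medians -1.35, -1.13 and -1.10; with library totals in 6, 5 and 6), with pfd-2 at 35.6, 36.2 and 34.1 CPM, against 89.3 CPM in control. pfd-3 had 52.0, 57.8 and 55.8 CPM, against 134 CPM, and pfd-6 33.4, 38.7 and 40.4 CPM, against 91.3 CPM. Regulators of HSF-1 were lower in 5 of 5 genes with TMM (medians -0.76, -0.64 and -0.77), but in 4, 2 and 3 with library totals, with 0 higher. They include hsb-1, which binds and restrains HSF-1, at 34.4 ± 0.710 CPM under vha-6 RNAi, 42.6 ± 0.898 CPM under vha-16 RNAi and 42.2 ± 0.590 CPM under vha-19 RNAi, against 78.4 ± 2.21 CPM in control. The sirtuin gene sir-2.1 had 45.9, 51.2 and 51.9 CPM, against 88.7 CPM, and ddl-1, a partner of HSB-1, 13.2, 14.4 and 13.7 CPM, against 22.4 CPM.

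Beyond the members, other small heat-shock genes were called in both directions, at shares near those of all genes under vha-16 and vha-19 RNAi. Of 11 genes listed, 8 are in the table and 7 were tested. Higher and lower calls numbered 3 and 1 under vha-6 RNAi, 3 and 3 under vha-16 RNAi and 4 and 3 under vha-19 RNAi, with medians of 0.19, -0.0073 and 0.15. sip-1, which is active in oocytes and embryos, fell to 351 ± 6.83 CPM under vha-6 RNAi, 309 ± 16.125 CPM under vha-16 RNAi and 261 ± 10.6 CPM under vha-19 RNAi, against 1182 ± 60.6 CPM in control. hsp-12.2 rose to 67.6 ± 0.149, 63.5 ± 2.54 and 59.8 ± 2.14 CPM, against 30.6 ± 2.97 CPM. hsp-25 had 265 ± 4.04, 195 ± 3.19 and 217 ± 2.32 CPM, against 196 ± 7.57 CPM. Of 3 other HSP70 genes of the cytosol only F11F1.1 could be tested, at 18.9, 18.9 and 18.8 CPM, against 13.8 CPM in control. The heat-inducible pair F44E5.4 and F44E5.5 had at most 9 counts in any library.

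Chaperones of other compartments were not alike. Of 12 chaperone genes of the endoplasmic reticulum, 8 were higher and 3 lower under vha-6 RNAi, 10 and 1 under vha-16 RNAi and 10 and 2 under vha-19 RNAi (medians 0.30, 0.79 and 0.69), beside the shares of all genes above. With library totals 9, 12 and 12 were higher and 3, 0 and 0 lower. Of all genes 58.1%, 59.4% and 59.6% were then higher and 32.8%, 31.7% and 31.7% lower. The HSP90 gene of that compartment, enpl-1, had 1238 ± 44.0 CPM under vha-6 RNAi, 2239 ± 20.8 CPM under vha-16 RNAi and 2200 ± 20.6 CPM under vha-19 RNAi, against 1049 ± 16.486 CPM in control, and hsp-4, an HSP70 of the unfolded protein response, had 936, 1676 and 1472 CPM, against 597 CPM. The disulfide isomerase gene pdi-6 had 408, 589 and 506 CPM, against 269.99 CPM. All 6 mitochondrial chaperone genes were lower in every knockdown (medians -0.94, -1.50 and -1.40), and with library totals 4 under vha-6 RNAi and 6 in each of the others. hsp-60 had 116 CPM under vha-6 RNAi, 41.1 CPM under vha-16 RNAi and 48.2 CPM under vha-19 RNAi, against 383 CPM in control. The mitochondrial HSP70 gene hsp-6 had 622, 287 and 316 CPM, against 878 CPM, and Y22D7AL.10, the HSP10 partner of HSP-60, 105, 55.3 and 57.8 CPM, against 238 CPM.

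**Figure D4:**
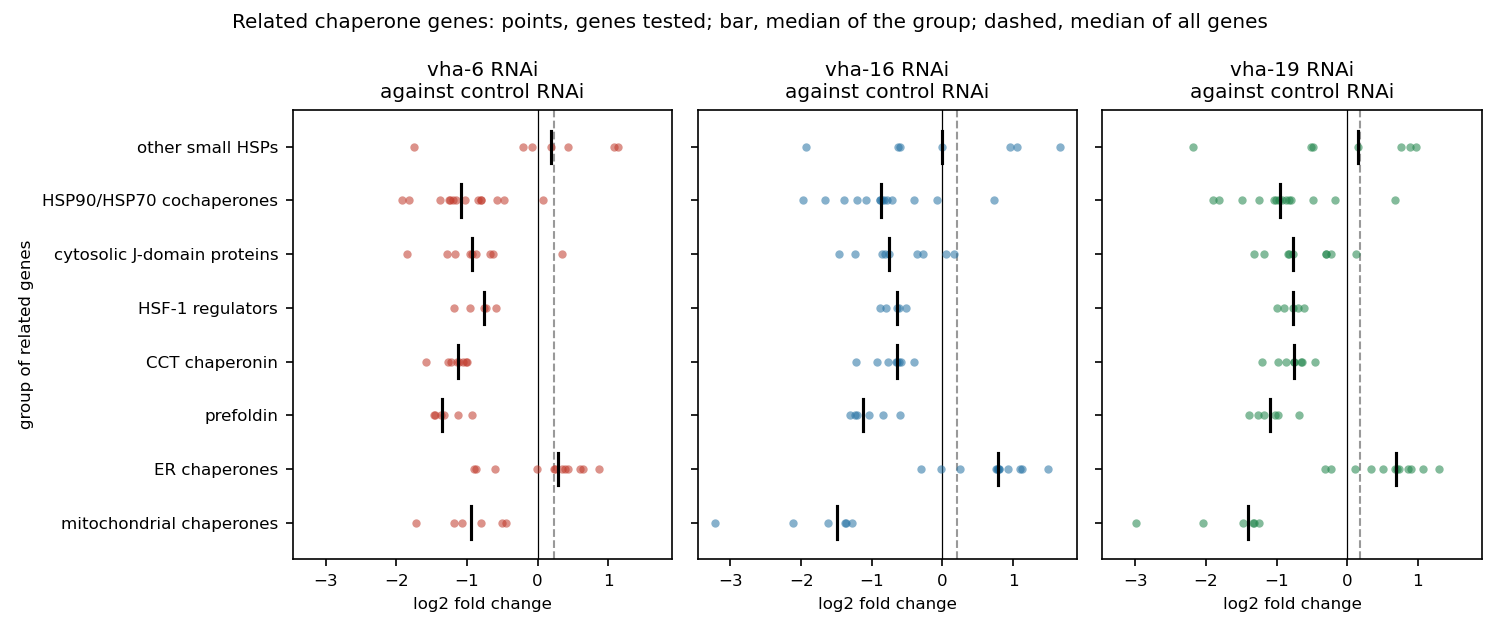
Log2 fold change against control RNAi (horizontal axis) of genes in 8 groups of chaperones and their regulators, 1 point per gene tested, with the group median as a bar and the median of all genes as a dashed line. Cochaperones, J-domain proteins, HSF-1 regulators, CCT, prefoldin and mitochondrial chaperones have medians below 0 in each panel, and chaperones of the endoplasmic reticulum have medians of 0.30, 0.79 and 0.69.

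Oocyte and yolk markers were lower beside the abundant chaperones, and markers of other tissues moved in other directions, all with TMM scaling. Of 15 oocyte and germline markers all 15 were lower in each knockdown, and their summed level was 2443 to 2470 CPM under vha-6 RNAi, 1851 to 1964 CPM under vha-16 RNAi and 1979 to 2047 CPM under vha-19 RNAi, against 15885 to 16212 CPM in control. The 6 yolk protein genes summed to 8698 to 9742, 4972 to 5466 and 3919 to 4552 CPM, against 103680 to 105350 CPM. The sum of 38 sperm markers, of which 36, 36 and 37 of 37 tested were called higher, was 1529 to 1557, 1539 to 1598 and 1580 to 1675 CPM, against 689 to 743 CPM. In the same order neurons, with 9, 10 and 10 of 10 markers higher, summed to 979 to 987, 1421 to 1474 and 1290 to 1298 CPM, against 583.3 to 599.6 CPM. Intestinal markers summed to 20872 to 22083 CPM under vha-6 RNAi, 3667 to 3689 CPM under vha-16 RNAi and 3681 to 3727 CPM under vha-19 RNAi, against 6077 to 6428 CPM in control. Single intestinal markers were mixed: 9, 6 and 6 of 11 were called higher and 2, 5 and 5 lower, with medians of 0.88, 0.67 and 0.71. Sums for body-wall muscle were 10587 to 10884, 5237 to 5473 and 5386 to 5685 CPM, against 7777 to 8428 CPM, and for hypodermis and cuticle 4249 to 4411, 2112 to 2327 and 2979 to 3091 CPM, against 4559 to 4943 CPM. Of the 10 markers for hypodermis and cuticle, 6 were nonetheless called higher and 4 lower in each knockdown (medians 1.98, 1.88 and 1.99), and of the 10 for muscle 8, 1 and 1 were higher and 1, 8 and 7 lower. No marker was at 0 in any group. These marker sums and calls were not recomputed with library totals. For muscle the median change was -0.53 in the vha-16 group and -0.56 in the vha-19 group. Those sizes are close to the upward shift of the all-gene median with library totals, 0.52 and 0.54. The muscle falls there, and the lower hypodermis and cuticle sum in the vha-6 group, may therefore depend on the scaling. The part of tissue makeup and stage in the heat-shock results was not tested.

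Across the 12 libraries the genes with the pattern most like each member were found by the root mean square distance of centred log2 CPM, and the libraries share their treatment and scaling. The nearest to hsf-1 were ess-2 (distance 0.036), W05H9.3 and C24D10.4. Those nearest to daf-21 were the CCT subunit gene cct-6 (0.034), dcn-1 and ubxn-2, and those nearest to hsp-1 were mfap-1 (0.033), the translation initiation factor gene eif-3.C and B0024.11. hsp-110 was nearest to lin-45 (0.033), which encodes the RAF kinase, prp-19 and erfa-3. For hsp-17 these were F54D1.6 (0.109), Y94H6A.10 and the serpin gene srp-8, for hsp-43 the nuclear receptor gene nhr-67 (0.147), T04F8.8 and fipr-21, and for hsp-16.48 B0403.3 (0.250), T03F6.3 and mig-21. hsp-70 was nearest to oac-34 (0.132), F48F7.5 and Y47G6A.5, hsp-16.2 to F21C10.18 (0.185), C49F8.1 and K12C11.6, and hsp-16.41 to K07C5.9 (0.174), Y9C2UA.1 and C05B5.5. Between members the closest were daf-21 and hsp-1 (0.121) and hsf-1 and hsp-1 (0.125), closer than the divergent neighbours hsp-16.2 and hsp-16.41 (0.404), which have few counts.

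**Figure D5:**
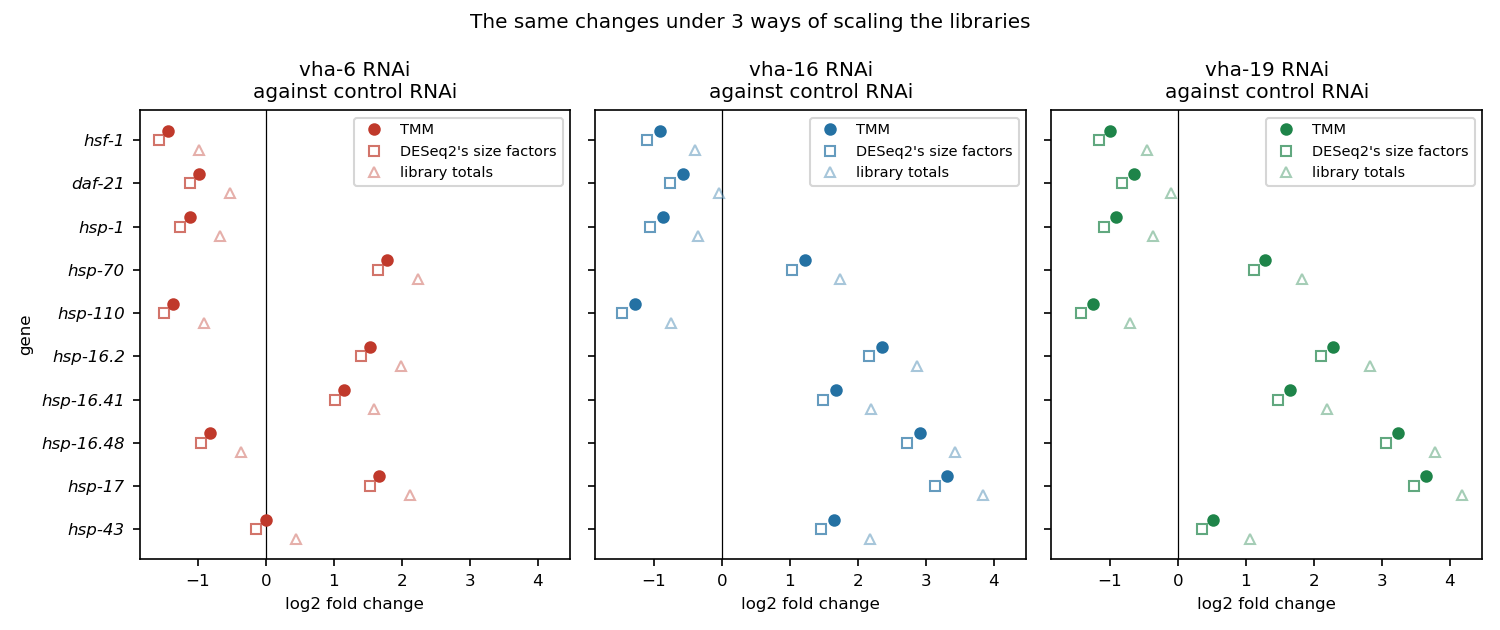
Log2 fold change of each heat-shock gene against control RNAi (horizontal axis) with libraries scaled by TMM (filled circles), by DESeq2's size factors (open squares) and by library totals (open triangles). Library totals lie to the right of TMM for all 10 genes in each panel; daf-21 reaches -0.049 under vha-16 RNAi and hsp-43 changes side under vha-6 RNAi.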

How the data were processed

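The values deposited by the authors are unnormalized whole-number counts, 1 column for each of 12 libraries, with differing totals. Alignment software and build appear in the submitters' processing notes as STAR 2.73a and WBcel235/ce11, beside edgeR 3.24.3. Not given in the sources used here are the read counter, its strand setting and how genes were filtered. The labels name polyA enrichment and BGISeq500 sequencing. Of 18470 entries, 3 hold unassigned reads (9.92% to 16.9% of all counted reads) and stayed out of library sizes and tests.

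Tests used edgeR 4.0.16 under R 4.3.3. filterByExpr left 17043 genes, TMM scaled the libraries (mean factors 1.05 for vha-6, 1.10 for vha-16, 1.12 for vha-19 and 0.770 for control RNAi), and a model of treatment means covered all 12 libraries. The 6 pairs of treatments were tested with the quasi-likelihood F-test, with Benjamini-Hochberg adjustment over all genes of a comparison. Called means adjusted p under 0.05. The script was tested on simulated data with few changed genes, as many raised as lowered, so that test cannot judge the scaling used here. Positions and exon lengths come from Ensembl release 115 (18340 of 18467 genes matched), on the same build.

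The members and gene lists were chosen with earlier results of these data known. All members are named, with the 3 genes of each chaperone list that had the smallest p over all 4 treatments and the 3 genes nearest each member in pattern. Genes that overlap a member, within-library ratios and F44E5.4 and F44E5.5 were added after values were seen. Labels do not say whether replicates were separate cultures, so the p-values rest on a spread between samples that may be technical (biological coefficient of variation 2.99%). Replicate numbers were not used to pair the samples in the main tests. Correlations of same-numbered libraries' deviations ran from -0.117 to 0.172, and not every correlation passed 0.1 in any pair of treatments. For vha-16 and vha-19 RNAi all of them lay above those of other pairs of libraries, as given below. Alternatives used DESeq2 1.42.0 and limma 3.58.1, figures matplotlib 3.10.9.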

Additional observations from a re-analysis of the deposited data

Results flagged for a closer look

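hsp-16.48 was called lower under vha-6 RNAi and higher under vha-16 and vha-19 RNAi, each against the same control libraries, and the direct tests called the difference: log2 fold change -3.73 for vha-6 RNAi against vha-16 RNAi and -4.06 for vha-6 RNAi against vha-19 RNAi. The gene has near-identical copies, so its counts are uncertain, and its fall under vha-6 RNAi rests on at most 85 counts per library. That fall was -0.37 with library totals (adjusted p = 0.0494 by edgeR), where the vha-6 and control libraries overlapped.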

How the results depend on the processing

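The 60 member changes (10 genes, 6 comparisons) and the 12 counts of called members were recomputed under 10 alternatives and without each library in turn. hsp-16.2 and hsp-16.41 average under 5 CPM, so 12 values have no counterpart with that filter. Of 948 recomputed changes, 923 kept their direction and their side of the threshold, 11 changed sign, 11 lost the call and 5 gained it, 2 of these with a change of sign. All changes of sign were in changes that edgeR with TMM had not called. For hsp-43 under vha-6 RNAi against control (-0.0049) the value was 0.44 with library totals (called), 0.049 with TMM computed without oocyte, sperm, yolk and cuticle genes, 0.025 with no filter on low counts, 0.19 when only genes averaging 5 CPM or more were kept (called), 0.064 with the 6 libraries compared alone and from -0.022 to 0.012 without 1 library (0.012 without vha-6 replicate 1). The DESeq2 Wald test gave -0.15 and called it lower. Between vha-16 and vha-19 RNAi, hsp-16.2 (0.074) ranged from -0.058 to 0.26 and hsp-16.41 (0.036) from -0.060 to 0.17 without 1 library. There hsp-16.2 was -0.0031 without vha-16 replicate 1, and -0.058 and -0.016 without vha-19 replicates 2 and 3, where hsp-16.41 was -0.060 and -0.040. Calls lost were those of hsp-110, hsp-16.41 and daf-21 given above.

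Of 192 recomputed member counts 1 moved by over 1.5 times: limma-voom called 2 members higher in vha-16 against vha-19 RNAi, where edgeR called 1 (daf-21 was added, 0.072, adjusted p = 0.0238). Without each library the counts of lower members ranged from 8 to 9 in both comparisons of vha-6 RNAi with another knockdown and did not move elsewhere. With the replicate number as a block, 4 members were higher and 5 lower under vha-6 RNAi, 6 and 4 in each of the other knockdowns against control, and no member count changed in any comparison. For vha-16 and vha-19 RNAi the same-numbered libraries correlated at 0.090 to 0.172, above all other pairs of libraries of these groups (-0.140 to 0.013), a hint from the data and not the design. With library totals the share of called genes that were higher went to 63.9%, 65.2% and 65.3% in the vha-6, vha-16 and vha-19 comparisons with control, where TMM gave 53.6%, 53.4% and 53.0%. It went to 36.5% for vha-6 against vha-19 RNAi (TMM 49.6%) and 44.8% for vha-16 against vha-19 RNAi (TMM 56.5%). Summing near-identical hsp-16 copies was not run, as the table holds 1 gene of each such pair at most. Depth limits hsp-16.2, hsp-16.41, hsp-16.48 and hsp-70, whose replicates varied by up to 36.5%. Counts of members changed 2-fold or more, and of called genes in the chaperone lists, were added after seeing the data and recomputed under the 3 other scalings. For the members only the count under vha-6 RNAi against control moved by over 1.5 times, to 4 with library totals. The causes of these movements were not tested.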
